A study of Mus musculus with 2 samples.

Results

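Collagens are the main structural proteins of the extracellular matrix. The collagen genes were described here as every non-control probe whose gene name on the array is Col, a number, a lower-case a and a number. The rule found 69 probes for 44 genes among 39429 probes. They fall into 4 classes: 11 fibrillar genes, 9 genes of the basement membrane and its anchoring zone, 9 FACIT genes (fibril-associated collagens with interrupted triple helices) and 15 others. Of these, 60 probes for 41 genes were kept, because on each array most spots of the probe cleared the scanner's background test in one or both dyes. Col4a3, Col10a1 and Col28a1 had no kept probe.

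Ureters were taken from wildtype NMRI mouse embryos of mixed sex at E13.75, days counted from conception. They were grown on transwell membranes for 18 h in medium with 10 µg/ml NOGGIN, an extracellular antagonist of bone morphogenetic proteins (BMPs), or in medium without it. The study asks which transcripts respond when BMP signals are blocked in the ureter. Each of 2 two-colour arrays held 1 control and 1 NOGGIN sample, with dyes exchanged between the arrays. A difference between the arrays can therefore come from dye or from replicate, and these cannot be told apart. The labels do not say how many ureters were pooled or whether the samples came from separate litters, so p-values measure only the spread between these samples. All values are from explants in culture, and they hold mesenchyme and epithelium together. In such bulk RNA, fewer cells of a type and less RNA per cell cannot be told apart.

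A collagen chain carries glycine at regular steps of 3 residues, and 3 chains wind into a triple helix. Fibrillar collagens assemble into the tension-bearing fibres of connective tissue and FACITs decorate those fibres. Type IV chains form the sheet-like network under epithelia and around muscle cells, and type VI chains form beaded filaments next to it. In the developing ureter, a basement membrane separates the urothelium from the mesenchyme that gives rise to smooth muscle and outer fibroblasts.

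All 14 urothelial, all 5 ureteric mesenchyme and all 9 smooth muscle markers had a kept probe. So did all 7 endothelial and all 4 macrophage markers, so a kept probe does not identify the tissue or show expression in both conditions. The sources disagree on the sign of the comparison. Every signed value below follows the dyes in the labels and is a log2 ratio of the labelled-NOGGIN channel to the labelled-control channel. Read this way, the BMP target Id1 was higher with NOGGIN (log2 ratio 2.14 ± 0.09, SD, n = 2). A BMP antagonist would be thought to lower such a target, so this direction is the reverse. The authors' deposited table, whose titles put NOGGIN first, has the opposite sign: it lists Col7a1 at 2.30 and 2.67, as signed folds for arrays 1 and 2, where the dyes give a lower value with NOGGIN. Which assignment of the dyes is right was not tested. If the dye labels are exchanged, each "lower" below becomes "higher" and the sizes stay.

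Collagen genes lay mostly on the lower side. Of the 41 kept genes, 26 had a log2 ratio below 0 on both arrays, 5 were above 0 on both and 10 went opposite ways; over all 22311 features the shares were 23.3% below, 20.4% above and 56.3% opposite. Their median log2 ratio was -0.40, with -0.21 on array 1 and -0.43 on array 2, against -0.01 for all features. At least 1.5-fold on both arrays, 6 collagen genes were lower (1.246% of all features) and 0 were higher (0.941% of all features). These 6 were Col4a5, Col4a6, Col7a1, Col6a2, Col6a6 and Col8a1. With median centring in place of loess, Col4a5 (-0.54 on array 1), Col4a6 (-0.57) and Col6a2 (-0.36) fell short of 1.5-fold on array 1 and Col6a5 passed. With the mean of a gene's kept probes, Col6a2 fell short (-0.56 on array 1) and Col14a1 passed. In limma's moderated test, 12 collagen genes were lower and 2 were higher at an unadjusted p under 0.05, against 3.36% and 2.68% of all features (6.04% in either direction). After Benjamini-Hochberg adjustment over all features 0 collagen genes passed 0.05, as did 0% of all features, and the lowest adjusted p of a collagen gene was 0.105. Single genes are therefore described by their values.

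**Figure D1:**
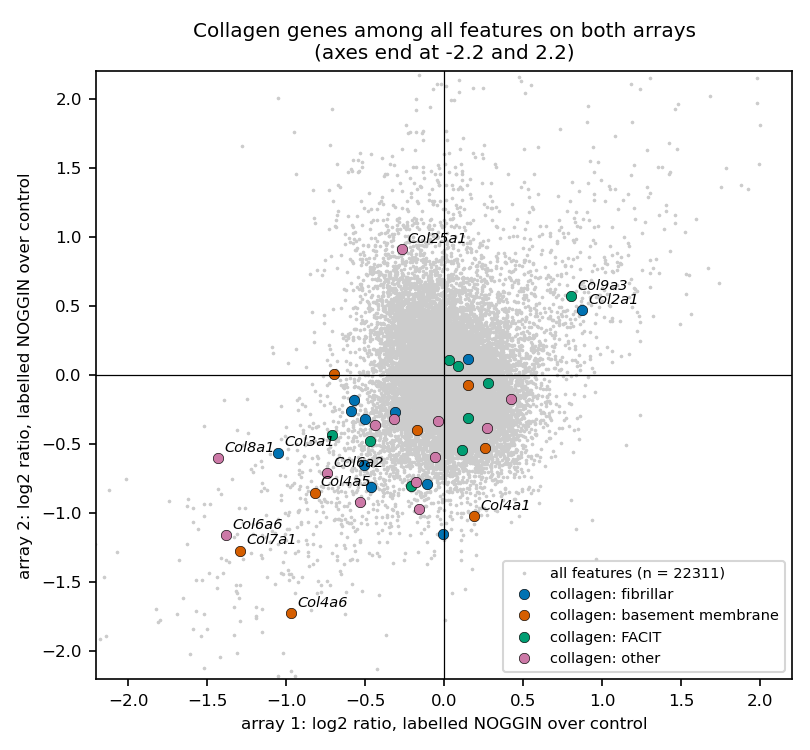
Each point is a gene, with its log2 ratio (labelled NOGGIN over labelled control) on array 1 along the x axis and on array 2 along the y axis; grey points are all 22311 features and coloured points the 41 collagen genes by class. Most collagen genes lie below 0 on the y axis; 26 lie in the lower left, led by Col7a1, Col6a6 and Col4a6, and Col2a1 and Col9a3 lie apart in the upper right.

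Levels in the 4 channels, given as log2 intensity after normalization across arrays, tell the same counts differently. In 23 of the 41 genes both labelled-NOGGIN channels were below both labelled-control channels, an arrangement found in 17.9% of all features. In 4 genes both were above, against 14.3% of all features, and in 14 the channels overlapped. The 2 arrays differed from each other in collagen ratios by a median of 0.35, against 0.26 for all features.

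**Figure D2:**
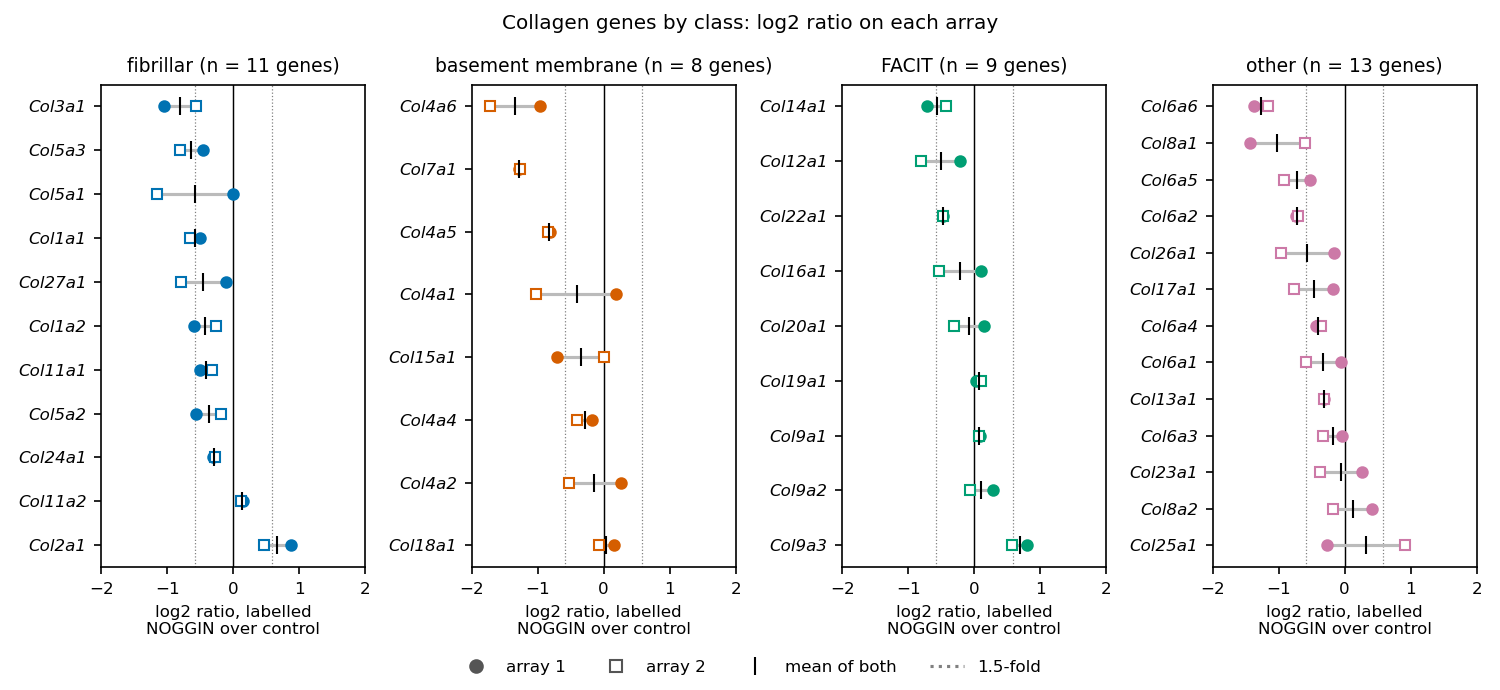
Each row is a kept collagen gene and the x axis is its log2 ratio, labelled NOGGIN over labelled control, in 4 panels by class. Filled circles are array 1, open squares array 2, black ticks the mean of both, and dotted lines mark 1.5-fold. Of the fibrillar genes, 9 of 11 lie below 0 on both arrays, as do 23.3% of all features. Col2a1 and Col9a3 have the highest means.

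Over all features, 23.3% were lower on both arrays, 20.4% were higher and 56.3% went opposite ways. Among basement membrane genes, 4 of 8 kept genes were lower on both arrays, 0 were higher and 4 went opposite ways, with a class median of -0.38. The values split by chain. Col4a5 and Col4a6, which encode the alpha5 and alpha6 chains that assemble together in the basement membranes of smooth muscle and some epithelia, were lower on both arrays. The ubiquitous chains Col4a1 and Col4a2 were not.

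Col4a6 measured 12.08 and 12.42 in the labelled-control channels of arrays 1 and 2 and 11.11 and 10.70 in the labelled-NOGGIN channels. Its log2 ratio was -1.34 ± 0.53 (SD, n = 2), a 2.53-fold difference and the largest mean among collagen genes (limma adjusted p = 0.179). Both labelled-NOGGIN channels were below both controls, by 0.97 on array 1 and by more on array 2 (log2 ratio -1.72). Its probe lies on chromosome X, 137599990 to 137600049 (build mm9, minus strand). A second probe of the gene was lower on both arrays too, but gave only -0.22 and -0.10, so the size for Col4a6 depends on the probe.

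Col4a5 measured 14.18 and 14.07 in the labelled-control channels and 13.37 and 13.22 in the labelled-NOGGIN channels, so the groups were well apart and the arrays alike. Its log2 ratio was -0.83 ± 0.02 (SD, n = 2; limma adjusted p = 0.217). The probe lies on chromosome X, 138123547 to 138123606 (mm9, plus strand).

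These genes are neighbours that are transcribed away from each other. In RefSeq (GRCm38.p6) their start sites are 1343 bases apart on chromosome X. The 150 bases before each start are shown because both genes were lower on both arrays, with GGGCGG or its reverse complement in capitals; this is the core of the GC box that SP1-type factors are known to bind.
Col4a5 (chrX:141475269-141475418, plus strand): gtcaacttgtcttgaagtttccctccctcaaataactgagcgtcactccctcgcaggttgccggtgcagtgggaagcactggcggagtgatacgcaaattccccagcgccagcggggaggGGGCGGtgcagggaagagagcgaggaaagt
Col4a6 (chrX:141474077-141474226, minus strand): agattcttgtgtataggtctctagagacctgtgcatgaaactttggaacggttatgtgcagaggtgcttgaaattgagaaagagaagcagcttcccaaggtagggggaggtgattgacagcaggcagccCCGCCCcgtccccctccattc

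Each of these stretches holds 1 such match. Neither the pair's shared interval nor a factor's binding was measured.

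Col4a1 and Col4a2 are likewise transcribed from opposite strands, with RefSeq start sites 21 bases apart on chromosome 8. Col4a1 measured 14.44 and 14.91 in the labelled-control channels and 14.63 and 13.89 in the labelled-NOGGIN channels. Its log2 ratios were 0.19 on array 1 and -1.02 on array 2, a mean of -0.41 ± 0.86 (SD, n = 2). Col4a2 measured 13.24 and 13.73 against 13.50 and 13.20, with log2 ratios of 0.26 and -0.53 and a mean of -0.14 ± 0.56. Within each array the 2 genes had the same sign, but the arrays disagreed and the channels overlapped. No difference by condition exceeded the spread between the arrays (limma adjusted p of 1 for each). Col4a4 was dim, at 7.60 and 7.77 in the labelled-control channels and 7.43 and 7.36 in the labelled-NOGGIN channels. Its second kept probe was higher on both arrays (0.33 and 0.27), so the direction of Col4a4 depends on the probe. Col4a3, the third chain of that network, was well above background in 1 of 4 channels.

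Col7a1 encodes the collagen of the anchoring fibrils that tie a basement membrane to the stroma beneath. It measured 10.80 and 10.82 in the labelled-control channels and 9.51 and 9.54 in the labelled-NOGGIN channels. The replicates lay close together and the conditions far apart. Its log2 ratio was -1.28 ± 0.01 (SD, n = 2), a 2.43-fold difference, with the lowest p among the collagen genes (limma adjusted p = 0.105). The probe lies on chromosome 9, 108886861 to 108886920 (mm9, plus strand). An SD of 2 arrays can be small by chance, and the limma standard error, which borrows spread from all features, was 0.16.

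The remaining basement membrane genes are the multiplexins, whose C-terminal fragments include endostatin in the case of Col18a1. Col18a1 had 0.15 and -0.07 on the 2 arrays, and its other kept probe had a mean of 0.15. Col15a1 had -0.70 and 0.01, with overlapping channels.

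Fibrillar genes formed the class with the most even direction: 9 of 11 were lower on both arrays, 2 were higher and 0 went opposite ways. Over all features the shares were 23.3%, 20.4% and 56.3%. Of the 2 higher genes, Col11a2 was well above background only in the green channel of each array. No fibrillar gene reached 1.5-fold on both arrays. The class median was -0.43, with -0.46 on array 1 and -0.32 on array 2. All 6 genes of types I, III and V were lower on both arrays, with a median of -0.58.

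Col3a1, a collagen of distensible tissues, measured 17.61 and 17.45 in the labelled-control channels and 16.56 and 16.89 in the labelled-NOGGIN channels. The log2 ratio of Col3a1 was -0.80 ± 0.34 (SD, n = 2; limma adjusted p = 0.342), and it missed the 1.5-fold rule narrowly on array 2 (-0.56). Col1a1 measured 16.98 and 16.95 against 16.47 and 16.29 with labelled NOGGIN, a log2 ratio of -0.58 ± 0.10 (limma adjusted p = 0.465). The type I partner Col1a2 measured 17.31 and 17.24 against 16.72 and 16.98, a log2 ratio of -0.43 ± 0.23 (limma adjusted p = 0.853). In all 3 genes both labelled-NOGGIN channels lay below both controls.

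Type V chains, which start fibrils and limit their width, were lower by uneven amounts. Col5a3 measured 10.38 and 10.88 in the labelled-control channels and 9.92 and 10.07 in the labelled-NOGGIN channels, a log2 ratio of -0.64 ± 0.25 (SD, n = 2; limma adjusted p = 0.465). Col5a1 had -0.01 on array 1 and -1.15 on array 2. Its mean of -0.58 therefore rests on array 2. Col5a2 had -0.57 and -0.18. Col27a1 repeated the pattern of Col5a1 in part, with -0.11 and -0.79, while Col24a1 (-0.31 and -0.27) and Col11a1 (-0.50 and -0.32) were alike on both arrays.

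Col2a1, the fibrillar collagen of cartilage, went the other way. It measured 13.29 and 13.14 in the labelled-control channels and 14.16 and 13.62 in the labelled-NOGGIN channels, so both NOGGIN values were above both controls. The log2 ratio was 0.67 ± 0.28 (SD, n = 2), a 1.59-fold difference (limma adjusted p = 0.444). Its probe lies on chromosome 15, 97806071 to 97806130 (mm9, minus strand). Col11a2 (0.15 and 0.12) was well above background only in the green channel of each array, so its ratio has little meaning.

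**Figure D3:**
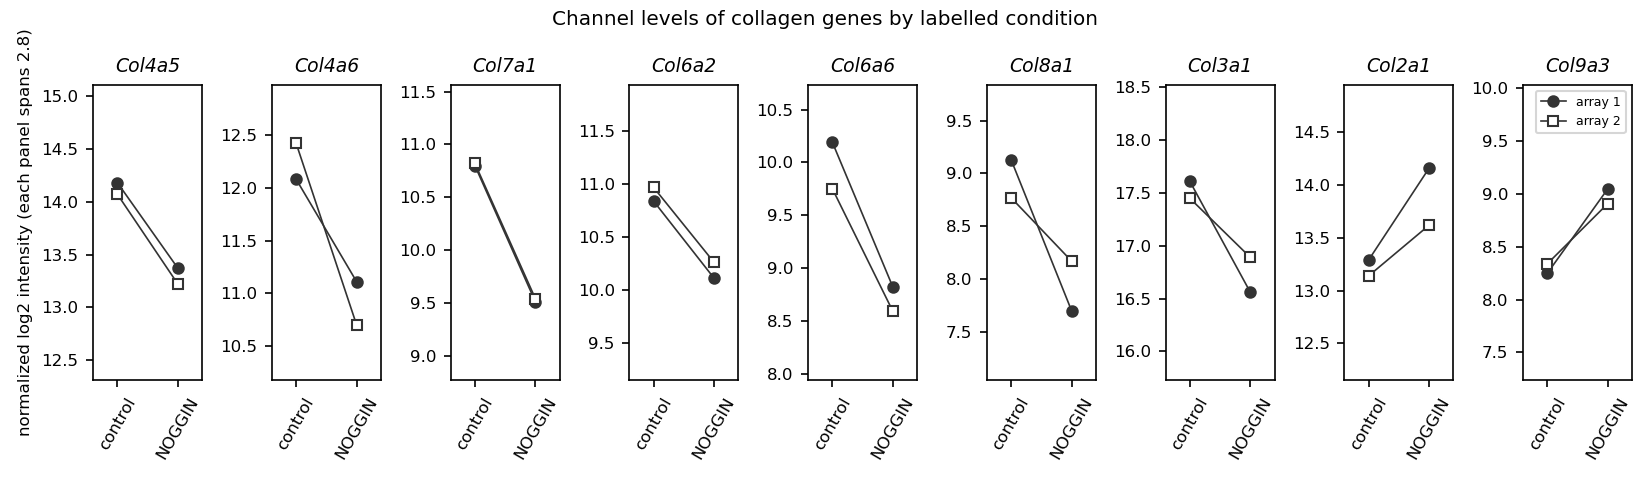
Normalized log2 intensity of 9 collagen genes in the labelled-control and labelled-NOGGIN channels, with a line for each array (filled circles array 1, open squares array 2); each panel covers the same span of log2 units around its own mean. The 6 genes past 1.5-fold on both arrays are shown with Col3a1, Col2a1 and Col9a3, which have large means in their classes. All 9 pairs of groups are separate, largely by this choice, whereas the channels overlap in 14 of the 41 kept collagen genes. With labelled NOGGIN, 7 genes are lower and Col2a1 and Col9a3 are higher on both arrays.

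FACIT genes had no common direction, with 3 of 9 higher on both arrays, 3 lower and 3 opposite, and a median of -0.08. Over all features the shares were 20.4%, 23.3% and 56.3%. Among the 3 higher, Col9a1 lay close to 0 with overlapping channels, and Col19a1 was above background only in the green channel of each array. No FACIT gene passed 1.5-fold on both arrays. Col9a3, a chain of type IX collagen that coats type II fibrils, measured 8.25 and 8.34 in the labelled-control channels and 9.05 and 8.91 in the labelled-NOGGIN channels. The ratio on the log2 scale was 0.69 ± 0.17 (SD, n = 2; limma adjusted p = 0.363), the highest mean of any collagen gene. The other type IX chains did not share it: Col9a1 had 0.09 and 0.07, and Col9a2 had 0.28 and -0.06, with overlapping channels in both.

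The FACITs of fibrous tissue were lower. Col14a1, which binds type I fibrils, measured 15.61 and 15.70 in the labelled-control channels and 14.90 and 15.27 in the labelled-NOGGIN channels, a log2 ratio of -0.57 ± 0.19 (SD, n = 2; limma adjusted p = 0.526). A second probe for it gave -0.70 and -1.15. Col12a1 measured 13.51 and 13.86 against 13.30 and 13.06, a log2 ratio of -0.50 ± 0.42 (limma adjusted p = 0.85). Col22a1, a collagen of tissue junctions such as the muscle-tendon junction, had -0.47 and -0.48 (limma adjusted p = 0.631). Col16a1 (0.11 and -0.54) and Col20a1 (0.15 and -0.31) went opposite ways, and Col19a1 was above background only in the green channel of each array.

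All 6 chains of type VI collagen were below 0 on both arrays, against 23.3% of all features, with a median of -0.56. Of these, 2 were lower by at least 1.5-fold on both arrays, against 1.246% of all features. On array 1, however, Col6a1 (-0.06) and Col6a3 (-0.04) lay close to 0. Col6a6, one of the long alternative chains that can take the place of alpha3, measured 10.19 and 9.75 in the labelled-control channels and 8.82 and 8.59 in the labelled-NOGGIN channels. The groups were separate by more than the spread within either. Its log2 ratio was -1.27 ± 0.15 (SD, n = 2), a 2.41-fold difference (limma adjusted p = 0.119). The probe lies on chromosome 9, 105591795 to 105591854 (mm9, minus strand), and a second probe gave -0.92 and -0.42.

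Col6a2, a core chain, measured 10.84 and 10.97 in the labelled-control channels and 10.11 and 10.26 in the labelled-NOGGIN channels. Its log2 ratio was -0.72 ± 0.02 (SD, n = 2; limma adjusted p = 0.295), and its other probe had a mean of -0.62. The other core chains had smaller ratios: Col6a1 measured 15.70 and 16.07 against 15.64 and 15.48, a log2 ratio of -0.33 ± 0.38, and Col6a3 had -0.04 and -0.33. Col6a5 was dim, at 7.09 and 7.42 in the labelled-control channels and 6.56 and 6.50 in the labelled-NOGGIN channels (log2 ratio -0.73 ± 0.28, limma adjusted p = 0.372). On array 2 its labelled-NOGGIN spots were not well above background, so the size of its ratio is uncertain. Col6a4 (-0.44 and -0.36) was also dim, at 6.95 and 7.39 against 6.52 and 7.04, and its channels overlapped.

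Col8a1, a short-chain collagen found in vessel walls and under endothelium, measured 9.13 and 8.77 in the labelled-control channels and 7.70 and 8.17 in the labelled-NOGGIN channels. The log2 ratio was -1.02 ± 0.58 (SD, n = 2; limma adjusted p = 0.341), with -1.43 on array 1 and -0.60 on array 2. Its partner Col8a2 had 0.42 and -0.17 and overlapping channels. A second kept Col8a2 probe was higher on both arrays (0.12 and 0.66), so the direction of Col8a2 depends on the probe. Markers of endothelium, a known source of type VIII collagen, had a median log2 ratio of 0.17. On both arrays 4 of 7 were above 0 and 2 below 0, against 20.4% and 23.3% of all features. Their part in the Col8a1 value was not tested.

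Among membrane-spanning collagens, Col17a1, a component of epithelial hemidesmosomes, had -0.18 and -0.77, and Col13a1 had -0.32 on each array. Col23a1 (0.27 and -0.38) and Col25a1 (-0.27 and 0.91) went opposite ways. Col26a1 had -0.16 and -0.97. Col10a1, the collagen of hypertrophic cartilage, was not well above background in any channel.

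The promoters of the remaining genes past 1.5-fold are shown beside that of Col3a1, a gene lower on both arrays that missed the rule, to let their composition be compared. Each is the 150 bases before the RefSeq start site (GRCm38.p6), with GGGCGG on either strand in capitals. For Col6a2, which has 2 listed starts, the more downstream one is given, and the other has 0 matches in its 150 bases. Col3a1 does not stand for all genes that missed the rule. In the same stretch Col5a3 holds 2 matches, Col6a5 holds 1 and Col8a2 holds 4, while Col1a2 holds 0.
Col7a1 (chr9:108953436-108953585, plus strand): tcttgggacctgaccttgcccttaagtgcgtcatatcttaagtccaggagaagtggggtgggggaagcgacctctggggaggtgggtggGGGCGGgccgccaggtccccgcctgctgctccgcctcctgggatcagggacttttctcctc
Col6a6 (chr9:105828086-105828235, minus strand): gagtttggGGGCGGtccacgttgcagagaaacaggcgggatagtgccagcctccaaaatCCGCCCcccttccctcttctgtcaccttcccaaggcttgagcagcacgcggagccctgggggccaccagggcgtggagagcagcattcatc
Col6a2 (chr10:76623405-76623554, minus strand): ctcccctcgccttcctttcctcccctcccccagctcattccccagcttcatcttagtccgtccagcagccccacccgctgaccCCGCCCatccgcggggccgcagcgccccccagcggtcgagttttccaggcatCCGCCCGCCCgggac
Col8a1 (chr16:57754738-57754887, minus strand): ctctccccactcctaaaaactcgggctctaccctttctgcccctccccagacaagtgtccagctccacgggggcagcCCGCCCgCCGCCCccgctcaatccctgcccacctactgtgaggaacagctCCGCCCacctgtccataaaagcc
Col3a1 (chr1:45311388-45311537, plus strand): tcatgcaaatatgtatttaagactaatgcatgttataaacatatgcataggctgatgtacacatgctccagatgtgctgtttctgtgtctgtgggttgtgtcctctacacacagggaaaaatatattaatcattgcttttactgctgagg

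Promoter windows of 300 bases, from 250 before to 50 after the start, were listed for 35 of the 44 genes. GGGCGG was present on either strand in all 6 genes past 1.5-fold and in 22 of 35 collagen genes (62.9%), against 35.7% of 32851 listed promoters. For each motif the collagen share is per gene and the other per promoter. Some collagen genes, such as Col18a1, have several listed starts, so these units are not alike. CCAAT was present in 37.1% of the collagen genes and 37.4% of all promoters, and TATAAA in 14.3% and 13.6%. GGCGCC, a GC-rich SMAD element, was present in 14.3% and 11.9%, and in 0 of the 6 genes. AGAC, the core of the SMAD box, was present in 91.4% and 88%, and in all 6 genes. The E-box CANNTG was present in 57.1% and 72.3%, and in 3 of the 6 genes. Matches were counted on both strands and where they overlapped another motif. They are descriptions of letters and not of bound sites.

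Several collagen genes lie side by side; distances are those between the nearest probes of a pair. On chromosome 9, Col6a6, Col6a5 and Col6a4 follow each other, with 88.5 kb and 62.6 kb between the nearest probes. All 3 genes were lower on both arrays, though Col6a5 and Col6a4 were dim. On chromosome 1, Col3a1 and Col5a2, with probes 25.6 kb apart on opposite strands, were lower on both arrays by different amounts (means of -0.80 and -0.37). On chromosome 10, Col6a2 lies 111 kb from Col6a1; they had -0.74 and -0.06 on array 1 and -0.71 and -0.59 on array 2, unlike on the first array and alike on the other. Col9a3 and Col20a1, 394 kb apart on chromosome 2, had 0.80 and 0.15 on array 1 and 0.57 and -0.31 on array 2, so their signs differed on array 2.

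Probes of 1 gene share their target and are not replicates, and 14 collagen genes had several kept probes. The means of those probes differed by a median of 0.28, and in 4 genes (Col4a4, Col9a1, Col23a1 and Col25a1) they had opposite signs. Col25a1, a brain-enriched transmembrane collagen, had 4 kept probes, with 0.91, 0.55, 0.15 and -0.50 on array 2. The last of these is 1 of 2 collagen probes that read as uninterrupted glycine-X-Y repeats, along with a Col15a1 probe that was well above background in 2 of 4 channels. Both are shown from the array design with the glycine codons of the repeat in capitals (mm9 positions):
Col25a1 (chr3:130270497-130270556, plus strand): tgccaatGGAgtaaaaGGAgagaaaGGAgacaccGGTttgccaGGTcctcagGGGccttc
Col15a1 (chr4:47283786-47283845, plus strand): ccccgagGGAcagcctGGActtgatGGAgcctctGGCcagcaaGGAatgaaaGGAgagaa

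Each holds 6 glycine codons, spaced 3 codons apart. Such repeats are the part of a collagen message most alike between genes. The longest run of bases that probes of 2 different collagen genes share was 15 of 60, between Col14a1 and Col25a1.

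Genes that process and bind collagen were counted in lists. Over all features, 23.3% were lower and 20.4% higher on both arrays. At least 1.5-fold on both, 1.246% were lower and 0.941% higher, and 3.36% were lower at an unadjusted limma p under 0.05. All 5 cross-linking enzymes were lower on both arrays, with a median of -0.83. Of these, 1 passed 1.5-fold on both and 3 had an unadjusted limma p under 0.05. Loxl1, a lysyl oxidase, measured 13.48 and 13.93 in the labelled-control channels and 12.81 and 12.51 in the labelled-NOGGIN channels, a log2 ratio of -1.04 ± 0.54 (SD, n = 2; limma adjusted p = 0.292). Of the genes listed for chain hydroxylation and folding, 12 of 19 were lower and 2 higher on both arrays, but the median was only -0.10. The member past 1.5-fold was Colgalt2, which adds galactose to hydroxylysine (-1.12 ± 0.53, limma adjusted p = 0.249).

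Of 7 measured genes of propeptide removal, 3 were lower and 2 higher on both arrays. Adamts2, the procollagen N-proteinase, had -1.07 ± 0.38 (SD, n = 2; limma adjusted p = 0.203) and passed 1.5-fold. Of 11 measured genes of collagen breakdown and its inhibitors, 3 were higher, 2 lower and 6 opposite, shares near those of all features (20.4%, 23.3% and 56.3%), and 0 passed 1.5-fold on both arrays. Mmp13, a collagenase, had -0.01 on array 1 and 3.48 on array 2, so its mean rests on a single array. Collagen receptors had 3 of 7 higher and 2 lower, none past 1.5-fold; the largest mean was that of the integrin Itga11 (-0.84 ± 0.73). Of 16 partners of type IV collagen in the basement membrane, 8 were lower and 2 higher. Lama3 (-0.90 ± 0.12, limma adjusted p = 0.202) and Lamc3 (0.92 ± 0.23, limma adjusted p = 0.214), both laminin chains, passed 1.5-fold in opposite directions. None of these genes passed an adjusted p of 0.05.

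**Figure D4:**
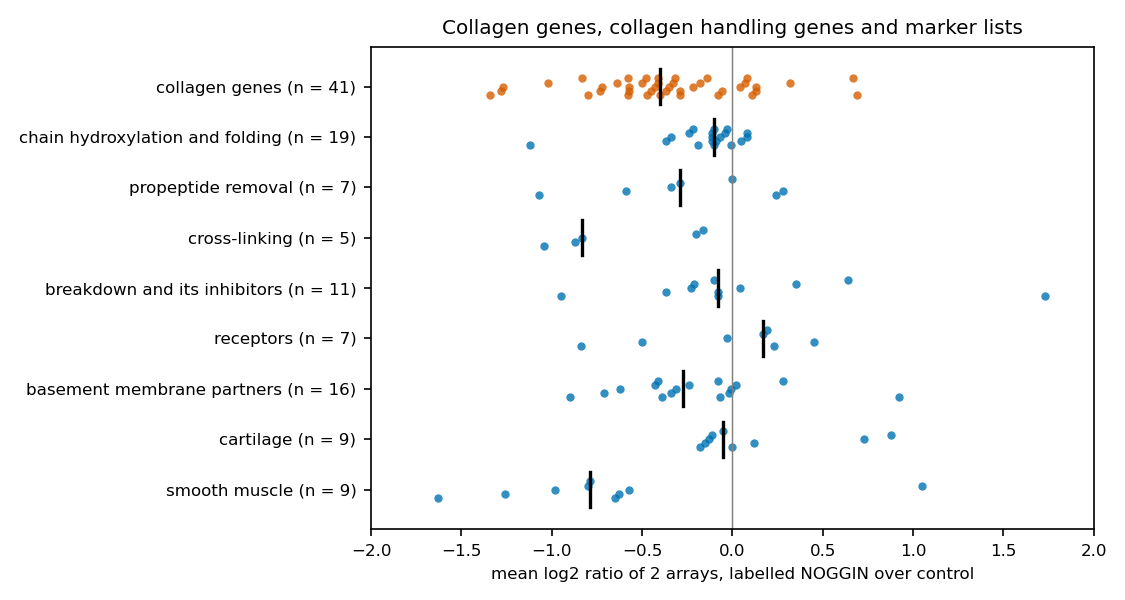
Each point is the mean log2 ratio of a gene over 2 arrays (x axis, labelled NOGGIN over labelled control), in rows for the 41 collagen genes (orange) and 8 other lists (blue), with black bars at the medians. The cross-linking (-0.83) and smooth muscle (-0.79) medians lie below that of the collagen genes (-0.40), while chain folding lies at -0.10.

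Markers of cell types that make collagen were counted beside these values. For comparison, 23.3% of all features were lower and 20.4% higher on both arrays. Smooth muscle markers were lower for 8 of 9 genes on both arrays (median log2 ratio -0.79). Myocd, an activator of the smooth muscle genes, was higher (1.05 ± 0.16, SD, n = 2). Fibroblast markers were lower for 4 of 6 (median log2 ratio -0.24). Of 12 cartilage markers 9 were measured, with a median of -0.05; Hapln1, a link protein, was higher (0.88 ± 0.19) as Col2a1 was, while Acan, the defining aggrecan, was dim and had -0.18 ± 0.02. Sox9, the activator of Col2a1 in cartilage that the ureteric mesenchyme also expresses, had 1.21 ± 0.01. It was counted in the ureteric mesenchyme list, where 2 of 5 markers were higher, 2 lower and 1 opposite (median log2 ratio -0.08). The part of these cell types in the collagen values was not tested.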

How the data were processed

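Two-colour arrays were read within each array, so every ratio is of samples on 1 slide. Per the file headers, the deposited scanner output gives the intensity of each spot in both dyes and a log10 ratio of red to green. The submitters' processing notes name Agilent Feature Extraction 10.7.3.1. The authors also deposited a signed score per probe, which its values show to be a linear fold change; its log2 values correlated at 0.891 with red over green on array 1 and at -0.943 on array 2. By the dye labels it is thus control over NOGGIN. The sources used here do not give its normalization.

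Mean signals were corrected by normexp (offset 50) and loess, in limma 3.58.1 under R 4.3.3; control spots had weight 0 in the loess fit. Outlier-flagged spots (3.48% and 3.37%) were left out after loess, and the 4 spots of a probe were averaged. Of 39429 probes 29649 were kept, giving 22311 features by brightest probe, with names updated through RefSeq accessions (GRCm38.p6; 28328 probes matched). Array number limits the precision. Channel levels were taken after Aquantile scaling and compared only within a probe. The limma fit had 1 coefficient, 1 residual and 4.35 prior degrees of freedom, two-sided p, and Benjamini-Hochberg adjustment over all features. Exon and UTR annotation was not used here.

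Genes given full values are those at least 1.5-fold on both arrays, the 3 largest means of each class, a fixed set (Col1a1, Col1a2, Col3a1, Col4a1, Col4a2, Col2a1, Col6a1) and, per pathway list, members past 1.5-fold or the largest mean; any other gene was picked with its values in view. Members and lists were chosen with earlier results of these data known. Alternatives covered background, signal, normalization, filter, flagged spots, spot summary, probe choice, variance model, fold threshold, the authors' values and single arrays. On simulated ratios for 22311 features, 97% of 100 genes at a log2 change of 2 and 18% at 1 passed an adjusted p of 0.05, against 0.07% of unchanged features. The simulation used independent normal errors, with their spread drawn from the fitted limma prior. These shares therefore do not measure power in the real data. There, Id1, at a log2 ratio of 2.14, had a limma adjusted p of 0.073, the lowest of all features. Figures were drawn with matplotlib 3.10.9.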

Additional observations from a re-analysis of the deposited data

How the results depend on the processing

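For 18 collagen genes, 179 values were tested under alternatives with both arrays: 177 kept their direction and side of the adjusted p threshold. The 2 others passed it where both channels had to be above background (Col7a1, adjusted p = 0.0408, and Col6a6, 0.0461, in limma's test), so 2 collagen genes passed there, as did 100 of all 19065 features (0.525%). Under the other settings with a test 0 collagen genes passed. A single array gives no test: of 36 such values 34 kept their direction, and Col4a1 (0.19 on array 1, -1.02 on array 2) and Col4a2 (0.26 and -0.53) turned on array 1. The 6 genes lower by at least 1.5-fold numbered 14 at a log2 threshold of 0.32 and 2 at 2-fold. They numbered 4 with median centring (Col4a5, Col4a6 and Col6a2 lost, Col6a5 gained), 9 with scanner processed signals and 8 with spot medians. For each array alone they numbered 10 to 16. Of all features, 1.246% were lower by this rule in the main setting. The share was 0.874% with median centring, 2.08% with scanner processed signals and 1.26% with spot medians. The 0 higher became 2 at the lower threshold, 1 with spot medians and 1 to 2 on single arrays. Of all features, 0.941% were higher in the main setting and 0.955% with spot medians. Shares of all features at the other thresholds and on single arrays are not given here. On single arrays the median of all collagen genes ran from -0.433 to -0.209, of fibrillar genes from -0.46 to -0.322, of basement membrane genes from -0.689 to -0.432 and of FACIT genes from -0.313 to 0.0918, above 0 on array 1. Col6a5, not above background in 1 channel, was -2.19 with scanner processed signals and -0.71 with spot medians. Col4a6 was -0.75 with the mean of its kept probes and -1.44 with scanner processed signals. The causes of these shifts were not tested.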
